A study of Homo sapiens with 8 samples.

Results

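Expression in SCC13 cells that carried a short hairpin RNA against EZH2 (shEZH2) was compared with that in SCC13 cells that carried a control hairpin against GFP (shGFP), a jellyfish protein that human cells do not make. Arrays were taken by the hairpin named in their labels, 2 for each of these hairpins, which are 4 of the 8 arrays in all. SCC13 is an established cell line that was grown from a squamous cell carcinoma of human skin, a cancer of epidermal keratinocytes. The other 4 arrays came from SCC13 cells with a hairpin against RING1B (shRING1B, 2 arrays) or BMI1 (shBMI1, 2 arrays). They entered the estimate of the spread and are set beside the shEZH2 values below. The series' title places the question in the inflammatory function of Polycomb proteins in this tumour. The sources used here do not give the vector, the hairpin sequences or the time after their delivery. The titles of the shEZH2 arrays start with SCCL3 and those of the other 6 arrays with SCC13, although the cell line is given as SCC13 for each of the 8. The hairpin cannot be told apart from another line, clone or batch marked by this prefix, which holds for every shEZH2 value below.

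EZH2 is the catalytic subunit of Polycomb repressive complex 2 (PRC2), in which it works with EED and SUZ12 to methylate histone H3 at K27, a mark of silent genes. HOX genes and other developmental transcription factors are its classical targets. In skin, EZH2 is found in dividing basal keratinocytes, where PRC2 is known for holding back differentiation genes. RING1B and BMI1 belong to a second complex, PRC1, which ubiquitinates histone H2A. PRC2 protein and histone marks were not measured here, only RNA.

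Values were log2 expression of probe sets as deposited, on which a difference of 1 is a doubling. They ranged from 1.36 to 14.47, and the array medians from 5.49 to 5.52. Of 53617 probe sets, 16098 were paired with a gene symbol, which gave 14884 genes with 1 probe set each. Gene values of the 2 arrays of a hairpin correlated at 0.995 to 0.996, shEZH2 arrays with other arrays at 0.992 to 0.993 and the other 6 arrays across hairpins at 0.993 to 0.996. Of the 6 measured keratinocyte markers, keratin KRT5 lay between 10.10 and 10.60 over the 8 arrays, KRT14 between 9.04 and 9.72, the desmosomal cadherin DSG3 between 9.22 and 10.37 and the epithelial protein stratifin (SFN) between 11.37 and 11.57. The desmosomal genes DSC3 and PKP1 lay closer to the middle of all genes, between 7.19 and 8.15 and between 7.33 and 7.69. Median differences from shGFP per autosome, over 10107 genes on 22 autosomes, ran from -0.05 to 0.03 with shEZH2, from -0.05 to 0.04 with shRING1B and from -0.03 to -0.004 with shBMI1. Nothing in the labels says that a hairpin's arrays had their own cultures, and p-values therefore measure the spread between arrays alone, possibly a technical spread. An exact permutation test of 2 against 2 arrays, two-sided, gives p = 0.333 at best. limma's moderated test was therefore used, with adjustment over all 14884 genes, and a gene was said to rise or fall at an adjusted p under 0.05. Errors after a difference are standard errors of that fit, n = 2 arrays per group, and pairs of levels are given as replicate 1 and replicate 2.

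EZH2 mRNA was at 9.83 and 9.97 with shGFP and at 8.95 and 9.03 with shEZH2. It was at 9.62 and 9.86 with shRING1B and 9.74 and 9.93 with shBMI1, so both shEZH2 arrays lay below the other 6. EZH2 fell by 0.91 ± 0.12 on the log2 scale (adjusted p = 0.0183), and the 95% interval of the difference ran from -1.18 to -0.64. The call was lost without either shGFP array or either shEZH2 array, with differences of -0.84 to -0.98, and over all probe sets (adjusted p = 0.116).

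The other 9 measured PRC2 genes did not pass the test, against 0.732% of all genes that did (109 of 14884). The core subunit SUZ12 was at 11.54 and 11.60 with shGFP and 11.44 and 11.43 with shEZH2, a difference of -0.14 ± 0.09. The histone-binding subunits RBBP4 and RBBP7 differed by -0.06 ± 0.11 and -0.08 ± 0.08. EZH1, the second catalytic subunit, stood at 9.02 and 9.03 with shGFP and 9.09 and 8.93 with shEZH2. Its groups overlapped, and the interval of its difference ran from -0.21 to 0.19. Accessory subunits lay on both sides: PHF19 at -0.26 ± 0.08, MTF2 at -0.23 ± 0.09, PHF1 at 0.14 ± 0.09, AEBP2 at 0.08 ± 0.09 and LCOR at 0.20 ± 0.08. No probe set is named for BMI1 or for RNF2, the RING1B gene. The knockdown by shBMI1 and shRING1B was therefore not checked here. Of 17 PRC1 genes and 14 genes of H3K27 demethylases and trithorax enzymes, 0 passed by limma. An unadjusted p under 0.05 was found for 3 and 1 of them, against 16.2% of all genes. The largest differences among them were in CBX6, a PRC1 chromodomain protein, at 0.39 ± 0.08 (adjusted p = 0.0863), PCGF6 at -0.27 ± 0.09 and ARID1A, a subunit of the SWI/SNF remodelling complex, at -0.23 ± 0.09.

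With shEZH2, 83 genes rose (0.558% of those tested) and 26 fell (0.175%). Without adjustment 2408 genes (16.2%) had p under 0.05. Both shEZH2 arrays lay above both shGFP arrays for 3438 genes (23.1%) and below them for 4013 (27%), and the median difference over all genes was -0.01. The counts of list members below stand against these shares of all genes. Counts of members at an unadjusted p under 0.05 are to be read against 16.2%. Of the risen genes, 30 rose by at least 1 log2 unit, and of the fallen genes 2 fell by that much. Protein-coding genes made up 79 of the 83 and 22 of the 26. Both shEZH2 arrays lay above all 6 other arrays in 77 of the risen genes, and below all 6 in 25 of the fallen ones. Among all 14884 genes they lay above all 6 in 1375 and below all 6 in 1777. The risen and fallen genes were chosen by their shEZH2 values, which favours such a separation. The shGFP and shEZH2 arrays carry these calls: leaving out shGFP replicate 1 left 19 genes, leaving out shGFP replicate 2 left 6, and without 1 of the shEZH2 arrays 0 passed by limma, where 1719 and 1579 genes had an unadjusted p under 0.05. Of the 69 named genes that passed, 15, 6, 0 and 0 still did in these fits.

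**Figure D1:**
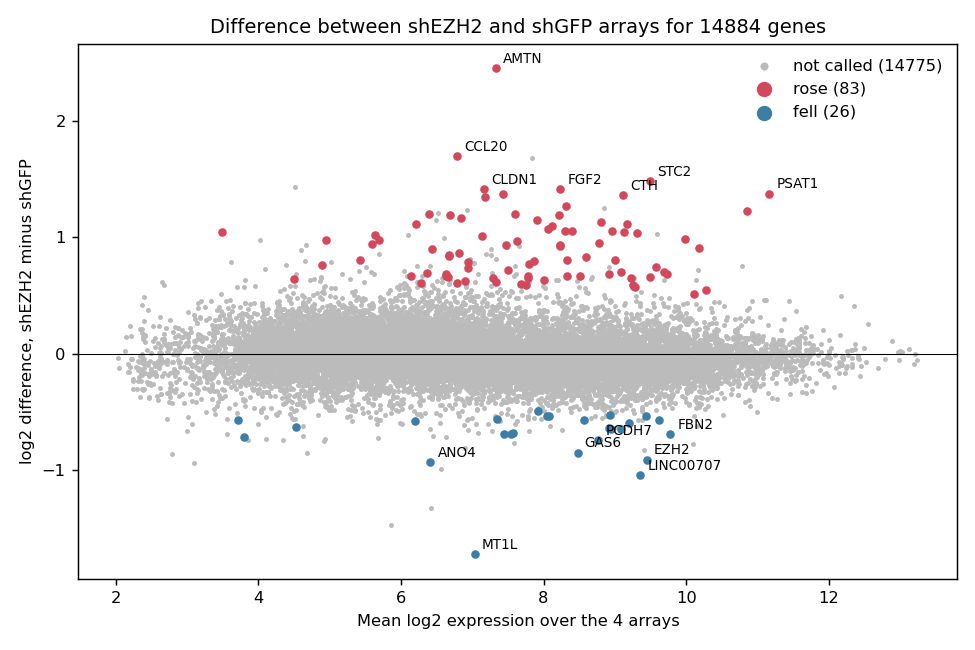
Each point is 1 of 14884 genes, with its mean log2 expression over the 4 arrays on the horizontal axis and the log2 difference, shEZH2 minus shGFP, on the vertical axis; red points rose, blue points fell and grey points did not pass. AMTN at 2.45 and MT1L at -1.72 lie farthest from 0.

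The largest increase was in AMTN, which encodes amelotin, a protein of the attachment between tooth and gum epithelium. AMTN was at 6.25 and 5.96 with shGFP and 8.62 and 8.49 with shEZH2, a 5.48-fold increase (2.45 ± 0.22 on the log2 scale, adjusted p = 0.00608). Levels of 7.04 and 6.27 with shRING1B and 6.60 and 6.46 with shBMI1 lay between these groups. The shEZH2 level also differed from both by limma (adjusted p = 0.0137 and 0.00845). LURAP1L had the smallest adjusted p, shared with CTH below, and rose by 1.37 ± 0.09 (6.75 and 6.75 against 8.14 and 8.11, adjusted p = 0.00326).

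**Figure D2:**
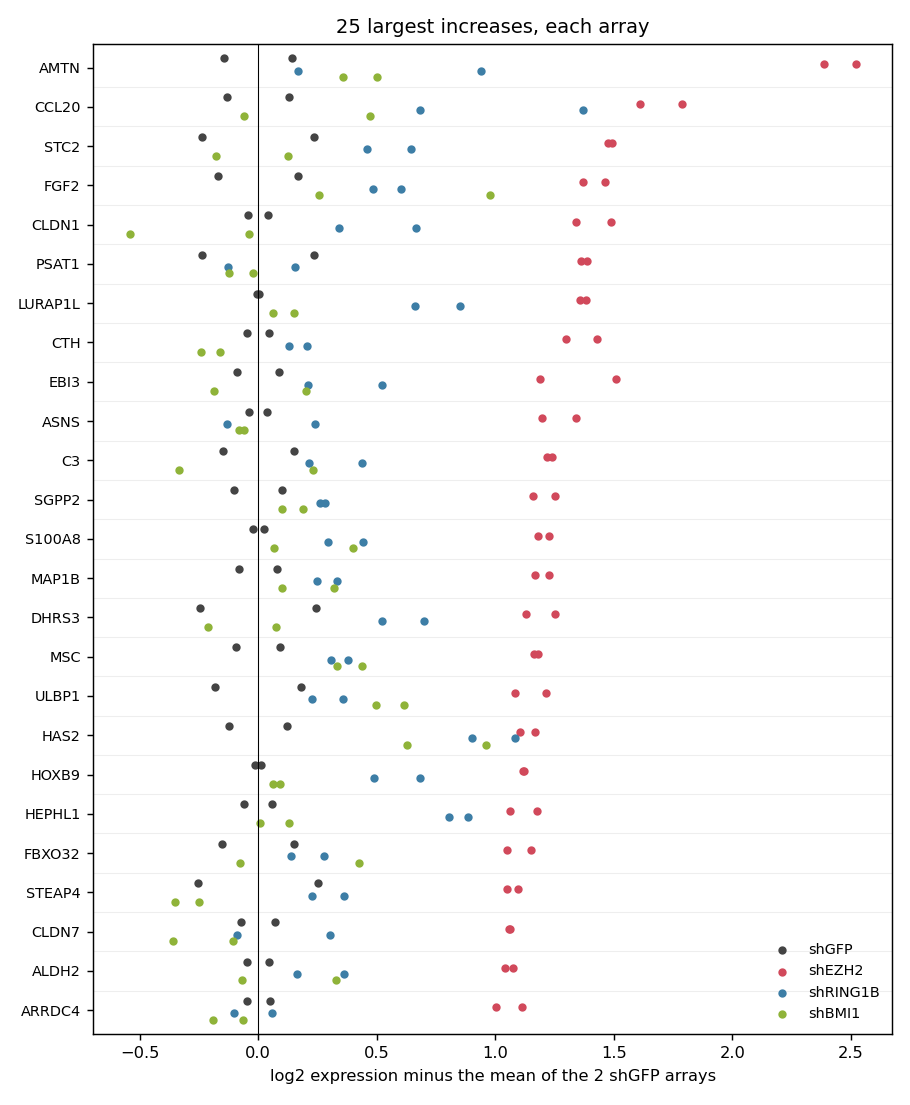
Each row is 1 of the 25 genes with the largest increases, and each dot is 1 array, with log2 expression minus the mean of the 2 shGFP arrays on the horizontal axis and colours for the 4 hairpins. The shEZH2 dots lie to the right of both shGFP dots in every row, which the choice of genes required, from 2.45 on average for AMTN to 1.06 for ARRDC4.

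Several enzymes that make amino acids rose. Of 16 measured members of that list 5 rose and 13 had both shEZH2 arrays above both shGFP arrays, against 0.558% and 23.1% of all genes, with a median difference of 0.25 against -0.01 over all genes. PSAT1 and PHGDH catalyse steps of serine synthesis. PSAT1 rose from 10.71 and 10.24 to 11.86 and 11.84 (1.38 ± 0.16, adjusted p = 0.0119), a 2.59-fold change. PHGDH rose from 8.70 and 8.51 to 9.47 and 9.35 (0.81 ± 0.11). CTH, the last enzyme of cysteine synthesis from methionine, rose 2.57-fold from 8.49 and 8.39 to 9.87 and 9.74 (1.36 ± 0.09, adjusted p = 0.00326). ASNS, asparagine synthetase, rose 2.41-fold from 7.73 and 7.65 to 8.89 and 9.03 (1.27 ± 0.13, adjusted p = 0.00868). ASS1, the argininosuccinate synthase of arginine synthesis, rose from 9.60 and 9.86 to 10.60 and 10.68 (0.91 ± 0.15, adjusted p = 0.0435). All 5 also stood higher with shEZH2 than with shRING1B and shBMI1 by limma: PSAT1 by 1.36 ± 0.16 and 1.45 ± 0.16, CTH by 1.20 ± 0.09 and 1.56 ± 0.09, ASNS by 1.21 ± 0.13 and 1.34 ± 0.13, PHGDH by 0.90 ± 0.11 and 0.85 ± 0.11, and ASS1 by 1.29 ± 0.15 and 1.29 ± 0.15. The list's mean level was 8.72 and 8.66 with shGFP, 9.17 and 9.15 with shEZH2 and between 8.59 and 8.71 on the other 4 arrays.

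Several regulators of the integrated stress response, in which the transcription factor ATF4 raises amino acid genes, and of the unfolded protein response rose too. Of 22 measured members 5 rose and 17 had both shEZH2 arrays above both shGFP arrays, against 0.558% and 23.1% of all genes (median 0.37). STC2, a secreted glycoprotein induced by stress of the endoplasmic reticulum, rose 2.79-fold from 8.98 and 8.51 to 10.24 and 10.22 (1.48 ± 0.17, adjusted p = 0.0109). TRIB3, a pseudokinase that restrains ATF4, rose from 8.67 and 8.54 to 9.73 and 9.58 (1.05 ± 0.13). The lipoprotein receptor VLDLR, a gene among the dimmest 30%, rose from 5.08 and 5.32 to 6.08 and 6.28 (0.98 ± 0.16), and SESN2, a leucine sensor that restrains mTORC1, from 9.25 and 9.41 to 10.06 and 10.01 (0.70 ± 0.12). XBP1, the transcription factor of the IRE1 branch, rose from 9.001 and 8.92 to 9.53 and 9.57 (0.59 ± 0.10, adjusted p = 0.0435). In all 5, both shEZH2 arrays lay above the other 6 arrays, as in 1375 of all 14884 genes. Against shBMI1 each of the 5 also passed, with adjusted p from 0.00845 for STC2 to 0.0282 for VLDLR. Against shRING1B, 1 of the 5 passed, XBP1 (0.68 ± 0.10, adjusted p = 0.0272). The differences were 0.93 ± 0.17 for STC2, 0.77 ± 0.16 for VLDLR, 0.59 ± 0.12 for SESN2 and 0.50 ± 0.13 for TRIB3 (adjusted p = 0.0642, 0.0828, 0.0785 and 0.144).

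The aminoacyl-tRNA synthetases, which load amino acids onto their tRNAs, held 0 of 17 genes that passed by limma (6 at an unadjusted p under 0.05). Both shEZH2 arrays lay above both shGFP arrays in 13 of them and below in 4, against 23.1% and 27% of all genes (median 0.18), so 0 members had overlapping groups. SARS1, the seryl-tRNA synthetase, was at 10.16 and 10.18 with shGFP and 10.63 and 10.59 with shEZH2 (0.44 ± 0.08, adjusted p = 0.074). YARS1 and WARS1 differed by 0.46 ± 0.14 and 0.36 ± 0.08. The list means of 10.29 and 10.22 with shGFP and 10.42 and 10.43 with shEZH2 compare with 10.23 to 10.28 on the other arrays. PCK2 and UPP1, chosen after their values were seen, rose. PCK2, the mitochondrial phosphoenolpyruvate carboxykinase, went from 7.73 and 7.81 to 8.81 and 8.58 (0.93 ± 0.10), and the uridine phosphorylase UPP1 from 8.83 and 8.76 to 9.88 and 9.78 (1.04 ± 0.12).

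The promoter of ASNS is shown because it was the only one, among the risen genes of both lists, with a match to TGATGNAA, a core of the element that ATF4 and C/EBP proteins bind. The window runs from 250 bases before to 50 after the start site (RefSeq, GRCh38.p14, chr7:97872359-97872658, minus strand), and the capitals mark the match, which begins 68 bases before the start site.
ASNS: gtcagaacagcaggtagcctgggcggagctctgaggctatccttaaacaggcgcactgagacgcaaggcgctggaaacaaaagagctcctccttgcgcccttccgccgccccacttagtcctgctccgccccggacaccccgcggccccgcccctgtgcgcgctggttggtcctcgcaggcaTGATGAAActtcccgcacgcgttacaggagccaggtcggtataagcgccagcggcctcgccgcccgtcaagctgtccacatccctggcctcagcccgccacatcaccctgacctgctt
The motif was searched on both strands in the windows of the 10749 tested genes that have one, of which 2.24% held it. It was found in 6 of 14 aminoacyl-tRNA synthetase windows (AARS1, CARS1, IARS1, MARS1, NARS1 and TARS1), in 2 of 11 amino acid synthesis windows, in 1 of 19 windows of the stress regulators (ATF3) and in 2 of 63 windows of risen genes. These are counts of letters, not of bound sites.

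Single inflammatory genes rose in several families. Of 24 interleukins and colony stimulating factors 3 rose and 14 had both shEZH2 arrays above both shGFP arrays, against 0.558% and 23.1% of all genes (median 0.24). The list's median difference from shGFP was about as large with shRING1B, at 0.25, and was 0.08 with shBMI1. EBI3, a subunit shared by interleukins of the IL-12 family, rose 2.55-fold from 6.59 and 6.41 to 8.01 and 7.69 (1.35 ± 0.17, adjusted p = 0.0178). IL32, a proinflammatory cytokine, rose from 7.07 and 7.21 to 8.19 and 8.03 (0.97 ± 0.10, adjusted p = 0.0109). LIF, an IL-6 type cytokine, rose from 6.31 and 6.28 to 6.96 and 6.98 (0.67 ± 0.09, adjusted p = 0.0191). LIF was at 7.22 and 7.06 with shRING1B, and the difference between the hairpins did not pass (-0.17 ± 0.09, adjusted p = 0.406), while with shBMI1 it was at 6.23 and 6.19 and the difference passed (adjusted p = 0.0102). EBI3 and IL32 passed against shBMI1 (adjusted p = 0.0153 and 0.00871) and not against shRING1B (0.0597 and 0.0824). CSF3, the granulocyte growth factor, was at 8.16 and 8.30 with shGFP and 9.61 and 9.35 with shEZH2, and IL24 at 9.37 and 8.80 and 10.11 and 10.11. Neither passed (1.25 ± 0.27, adjusted p = 0.09, and 1.03 ± 0.30, adjusted p = 0.162), and the arrays of other hairpins spread widely (CSF3 at 8.07 and 9.004 with shBMI1, IL24 at 10.34 and 9.39 with shRING1B). With shRING1B CSF3 was at 9.43 and 9.03.

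Among 33 chemokines CCL20 rose and 11 had both shEZH2 arrays above both shGFP arrays, against 0.558% and 23.1% of all genes. CCL20 is the ligand of CCR6 on dendritic cells and lymphocytes. It was at 6.07 and 5.81 with shGFP and 7.55 and 7.73 with shEZH2, a 3.25-fold increase (1.70 ± 0.24, adjusted p = 0.026). With shRING1B it was at 7.31 and 6.62, and the difference between the hairpins did not pass (0.67 ± 0.24, adjusted p = 0.249). With shBMI1 it was at 5.89 and 6.41, and that difference passed (1.49 ± 0.24, adjusted p = 0.0363). CXCL8, which draws neutrophils, was at 6.93 and 6.71 with shGFP and 7.66 and 7.77 with shEZH2 (0.90 ± 0.23, adjusted p = 0.12), and CCL3 at 0.66 ± 0.17 (adjusted p = 0.12). Neither passed. With shRING1B CXCL8 was at 8.18 and 7.35. The chemokine list as a whole had a median difference from shGFP of 0.07 with shEZH2, 0.07 with shRING1B and 0.02 with shBMI1. Its members lay among the dimmest 30% of genes in 17 of 33 cases, below a mean log2 expression of 5.61.

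Receptors and signal proteins of the same pathways did not pass. Of 24 cytokine receptors and adaptors, 13 had both shEZH2 arrays above both shGFP arrays (23.1% of all genes), 3 below (27%), and 0 passed by limma (9 at an unadjusted p under 0.05, median 0.18). IRAK2 and IRAK3, kinases of Toll-like and interleukin 1 receptor signalling, differed by 0.64 ± 0.14 and 0.69 ± 0.18, and the interleukin 33 receptor IL1RL1 by 0.58 ± 0.23. Of 12 genes of NF-kB subunits and feedback inhibitors, 9 had both shEZH2 arrays higher and 0 lower, against the same 23.1% and 27% (median 0.24), with 0 passing by limma and 7 at an unadjusted p under 0.05. The endonuclease ZC3H12A, which degrades cytokine mRNAs, was at 8.70 and 8.78 and 9.46 and 9.45 (0.71 ± 0.17, adjusted p = 0.113). The inhibitor TNIP1 and the subunit NFKB2 differed by 0.57 ± 0.15 and 0.51 ± 0.13. The mean of this list was 7.93 and 8.03 with shGFP, 8.26 and 8.24 with shEZH2, 8.18 and 8.10 with shRING1B and 7.89 and 8.06 with shBMI1.

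Some complement and antimicrobial genes rose as well. Of 13 complement and acute phase genes C3 and CFB rose, and 8 had both shEZH2 arrays above both shGFP arrays, with 0 below (0.558% rose, 23.1% above and 27% below among all genes; median 0.20). C3, the central complement protein, rose 2.34-fold from 10.10 and 10.39 to 11.48 and 11.46 (1.23 ± 0.19, adjusted p = 0.0329), and CFB, the protease of the alternative pathway, from 6.53 and 6.60 to 7.33 and 7.28 (0.74 ± 0.08, adjusted p = 0.0109). By limma C3 passed against shBMI1 (adjusted p = 0.0233) and not against shRING1B (adjusted p = 0.086). SAA1, serum amyloid A, was at 5.68 and 5.50 and 6.70 and 6.52 without passing (1.02 ± 0.20, adjusted p = 0.0816). Of 21 S100 and antimicrobial genes 4 rose and 11 had both shEZH2 arrays higher, against 0.558% and 23.1% (median 0.16). S100A8 and S100A9, which form the alarmin calprotectin, rose from 6.97 and 7.02 to 8.23 and 8.18 (1.20 ± 0.12, adjusted p = 0.00868) and from 8.29 and 8.31 to 9.31 and 9.21 (0.96 ± 0.13, adjusted p = 0.0191). SLPI, a secreted inhibitor of leukocyte proteases, rose from 9.44 and 9.54 to 10.48 and 10.45 (0.98 ± 0.08, adjusted p = 0.00489), and S100A7, psoriasin, from 5.89 and 6.08 to 6.82 and 6.95 (0.90 ± 0.11). S100A8, S100A9, SLPI and CFB were higher with shEZH2 than with either other Polycomb hairpin. For SLPI these differences were 1.09 ± 0.08 against shRING1B and 1.11 ± 0.08 against shBMI1 (adjusted p = 0.00389 and 0.00267). S100A7 passed against shBMI1, where it was at 5.30 and 5.48 (1.497 ± 0.11, adjusted p = 0.00267), and not against shRING1B (adjusted p = 0.059).

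The CCL20 and EBI3 promoters are shown because both genes rose and both windows hold GGNNTTTCC, letters found in many NF-kB binding sites. This motif and the EBI3 window were chosen after values were seen. The CCL20 window is chr2:227813592-227813891 and the EBI3 window chr19:4229273-4229572, both on the plus strand of GRCh38.p14 (RefSeq). Capitals mark the match, which begins 79 bases before the start site in CCL20, where it reads on the other strand, and 67 bases before it in EBI3.
CCL20: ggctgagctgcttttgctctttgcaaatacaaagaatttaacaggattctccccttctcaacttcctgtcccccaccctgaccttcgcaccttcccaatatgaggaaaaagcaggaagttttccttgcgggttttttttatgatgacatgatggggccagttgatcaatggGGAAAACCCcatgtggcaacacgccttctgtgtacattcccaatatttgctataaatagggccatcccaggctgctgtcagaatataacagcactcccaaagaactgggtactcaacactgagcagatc
EBI3: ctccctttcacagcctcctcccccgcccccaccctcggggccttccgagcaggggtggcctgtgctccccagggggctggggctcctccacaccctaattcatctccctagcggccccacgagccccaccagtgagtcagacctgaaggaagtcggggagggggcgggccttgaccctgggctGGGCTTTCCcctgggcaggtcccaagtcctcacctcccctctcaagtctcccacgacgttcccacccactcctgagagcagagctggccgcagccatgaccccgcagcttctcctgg
On either strand the motif was found in 6.67% of all 10749 windows, in 8 of 24 chemokine windows, in 4 of 11 windows of NF-kB genes and in 11 of 63 windows of risen genes. The chemokine windows with it were those of CCL20, CXCL2, CXCL3, CXCL5, CXCL6, CXCL8, CXCL10 and CXCL11, of which CCL20 alone passed the test. CXCL10 and CXCL11 differed by -0.05 ± 0.34 and -0.10 ± 0.31.

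Interferon response genes did not pass. Of 33 measured members 0 passed by limma and 5 had an unadjusted p under 0.05, with 6 above, 6 below and 21 overlapping, against 23.1% above and 27% below among all genes (median -0.06). IFIT1, an interferon-induced RNA-binding protein, was at 5.87 and 7.31 with shGFP and 4.99 and 5.26 with shEZH2 (-1.47 ± 0.56, adjusted p = 0.256). The shGFP arrays stood as far apart as the groups, and the list's mean was 7.54 and 7.97 with shGFP against 7.62 and 7.64 with shEZH2. With shRING1B and shBMI1, replicate 2 was likewise the higher array of the list (7.73 against 7.41, and 7.98 against 7.64). IFIT2 and IFIT3 differed by -0.99 ± 0.40 and -0.76 ± 0.45. Of 6 antigen presentation genes 0 passed by limma (0 at an unadjusted p under 0.05), with B2M, the light chain of MHC class I, at -0.19 ± 0.11, the peptidase ERAP2 at -0.30 ± 0.13 and the peptide-loading protein TAPBP at 0.16 ± 0.09.

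Ligands that immune cells read moved in both directions. Of 23 checkpoint and natural killer cell ligands, ULBP1 rose and CD274 fell, against 0.558% and 0.175% of all genes. ULBP1, a ligand of the activating receptor NKG2D, was at 7.15 and 7.51 with shGFP and 8.41 and 8.54 with shEZH2 (1.15 ± 0.13, adjusted p = 0.0109), which is 2.22-fold higher. It was also higher than with shRING1B (0.86 ± 0.13, adjusted p = 0.0339) and did not pass against shBMI1 (0.59 ± 0.13, adjusted p = 0.0837). CD274, which encodes the inhibitory ligand PD-L1, was at 7.84 and 7.99 with shGFP and 7.28 and 7.17 with shEZH2, a fall by 0.68 ± 0.10 (adjusted p = 0.0243). CD274 was at 8.23 and 8.12 with shRING1B and 7.88 and 7.91 with shBMI1, and shEZH2 was lower than both (adjusted p = 0.0109 and 0.0225). RAET1E, another NKG2D ligand, was at 0.40 ± 0.12 without passing. Of 10 prostaglandin and leukotriene genes 0 passed by limma, with 3 at an unadjusted p under 0.05: PTGES2 differed by -0.43 ± 0.11, the receptor PTGER4 by -0.38 ± 0.08 and the inducible cyclooxygenase PTGS2 by 0.28 ± 0.14.

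The tight junction genes CLDN1, CLDN7 and OCLN rose. Among 32 junction genes of epithelia, 3 rose and 16 had both shEZH2 arrays above both shGFP arrays, against 0.558% and 23.1% of all genes (median 0.10). CLDN1, the claudin that seals the epidermal barrier, rose 2.66-fold from 6.51 and 6.42 to 7.80 and 7.95 (1.41 ± 0.17, adjusted p = 0.0159). CLDN7 rose from 7.84 and 7.70 to 8.83 and 8.83 (1.06 ± 0.14) and OCLN, occludin, from 6.33 and 6.43 to 7.31 and 7.19 (0.87 ± 0.10, adjusted p = 0.0109). With shBMI1 CLDN1 was at 5.92 and 6.43, CLDN7 at 7.41 and 7.66 and OCLN at 5.99 and 6.03, and all 3 differed from shEZH2 (adjusted p = 0.00768, 0.00845 and 0.00325). Against shRING1B CLDN7 passed (0.95 ± 0.14, adjusted p = 0.0336) and CLDN1 and OCLN did not. The desmosomal cadherin DSG3 was at 9.76 and 10.09 and 10.33 and 10.37 (0.43 ± 0.13, adjusted p = 0.176) without passing against shGFP, and was higher with shEZH2 than with shRING1B and shBMI1 (1.01 ± 0.13 and 0.91 ± 0.13, adjusted p = 0.0187 and 0.022).

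Keratins and barrier genes did not pass. Of 24 keratins, 6 had both shEZH2 arrays higher and 7 lower, near the 23.1% and 27% of all genes, with 0 passing by limma and 4 at an unadjusted p under 0.05. Among the dimmest 30% of genes lay 11 of these 24. The basal keratin KRT14 was at 9.61 and 9.72 with shGFP and 9.08 and 9.13 with shEZH2 (-0.57 ± 0.13, adjusted p = 0.0999), and KRT10, the keratin of the layers above, at 7.11 and 7.32 and 6.62 and 6.67 (-0.57 ± 0.12, adjusted p = 0.0892). Both were also lower with the other hairpins, KRT10 at 6.66 and 6.87 with shRING1B and 6.58 and 6.80 with shBMI1. Of 44 cornified envelope and barrier genes 0 passed by limma and 5 had an unadjusted p under 0.05, with 12 higher, 7 lower and 25 overlapping, against the same shares (median 0.02). Because 20 of these 44 lay among the dimmest 30% of genes, changes in them could have been missed. SPRR2A and SPRR2F, cornified envelope precursors, differed by 0.59 ± 0.20 and 0.61 ± 0.18, with uncertainty because SPRR2 genes are near copies of each other. The fatty acid elongase ELOVL4 was at 9.51 and 9.39 and 9.86 and 9.91 (0.44 ± 0.09, adjusted p = 0.0853). Of 15 kallikreins and serpins 0 passed by limma (2 unadjusted), with 7 higher and 1 lower, against the same shares (median 0.09), and the largest differences were in KLK4 (0.39 ± 0.16), KLK1 (0.34 ± 0.11) and KLK13 (0.25 ± 0.16).

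Growth factors moved in both directions, with 5 of 43 growth factor and receptor genes risen and 1 fallen, against 0.558% and 0.175% of all genes. FGF2, basic fibroblast growth factor, rose 2.67-fold from 7.35 and 7.69 to 8.89 and 8.99 (1.42 ± 0.22, adjusted p = 0.0345). IGFBP6, which binds IGF2, rose from 8.07 and 8.30 to 9.09 and 8.95 (0.83 ± 0.12), and BTC, the EGF receptor ligand betacellulin, from 5.85 and 5.77 to 6.50 and 6.46 (0.67 ± 0.11). BMP2 and the glycoprotein hormone STC1 rose from 6.60 and 6.49 to 7.35 and 7.33 (0.79 ± 0.10) and from 7.38 and 7.43 to 8.19 and 8.16 (0.77 ± 0.10). With shRING1B, BMP2 was at 7.42 and 7.19 and STC1 at 8.43 and 8.26, and the differences between these hairpins did not pass (0.04 ± 0.10 and -0.17 ± 0.10, adjusted p = 0.896 and 0.46). GAS6, the ligand of the receptors TYRO3, AXL and MERTK, fell by 0.85 ± 0.09, from 8.83 and 8.97 to 8.09 and 8.02 (adjusted p = 0.0107), and was lower than with shRING1B and shBMI1 (-0.73 ± 0.09 and -0.77 ± 0.09, adjusted p = 0.016 and 0.0102). Its receptor AXL was at 10.43 and 10.35 with shGFP and 10.01 and 9.93 with shEZH2 (-0.42 ± 0.09, adjusted p = 0.0912). AXL did not pass against the control but was lower than with shRING1B (-0.86 ± 0.09, adjusted p = 0.012) and shBMI1 (-0.69 ± 0.09, adjusted p = 0.0184).

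Matrix genes were few and divided. Of 13 matrix and integrin genes AMTN rose and FBN2 fell, against 0.558% and 0.175% of all genes. FBN2, the microfibril protein fibrillin 2, fell by 0.69 ± 0.09, from 10.13 and 10.12 to 9.40 and 9.47 (adjusted p = 0.0188). HSPG2, perlecan, differed by 0.51 ± 0.14 without passing. HAS2, the main hyaluronan synthase, rose from 8.12 and 8.37 to 9.35 and 9.41 (1.14 ± 0.14, adjusted p = 0.0153), and stood at 9.15 and 9.33 with shRING1B and 8.87 and 9.21 with shBMI1. The differences between shEZH2 and these did not pass (0.14 ± 0.14 and 0.34 ± 0.14, adjusted p = 0.67 and 0.294). Of 18 mesenchymal genes LOXL2, a lysyl oxidase that crosslinks collagen, rose (0.558% of all genes did), from 7.91 and 8.07 to 8.54 and 8.79 (0.67 ± 0.11, adjusted p = 0.0479). Against shRING1B and shBMI1 LOXL2 did not pass by limma (adjusted p = 0.132 and 0.0623). The contractile protein TAGLN was at -0.60 ± 0.16 without passing. Of 18 matrix metalloproteinases and their inhibitors 0 passed by limma and 5 had an unadjusted p under 0.05, although 12 had both shEZH2 arrays higher and 1 lower, against 23.1% and 27% of all genes (median 0.16). TIMP4 was at 6.75 and 7.09 and 7.95 and 7.52 (0.81 ± 0.18, adjusted p = 0.0937), MMP28 at 0.47 ± 0.12 and MMP8 at 0.35 ± 0.14.

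Single genes among the classical Polycomb targets changed. Of 27 HOX genes HOXB9 rose, and 4 had both shEZH2 arrays above and 9 below both shGFP arrays (median -0.04). Among all genes 0.558% rose, 23.1% lay above and 27% below. HOXB9 was at 8.59 and 8.62 with shGFP and 9.73 and 9.72 with shEZH2, a 2.17-fold increase (1.12 ± 0.09, adjusted p = 0.00489). It was at 9.29 and 9.09 with shRING1B, where the difference did not pass (0.53 ± 0.09, adjusted p = 0.059), and at 8.70 and 8.67 with shBMI1, where it did (1.04 ± 0.09, adjusted p = 0.00481). HOXD4 and HOXB5 differed by -0.36 ± 0.09 and -0.31 ± 0.19. Of 81 developmental transcription factors GATA6, an endoderm factor, rose from 7.96 and 7.88 to 8.86 and 8.60 (0.81 ± 0.12, adjusted p = 0.026), and 25 lay above, 14 below and 42 overlapped, against the same shares (median 0.02). GATA6 was nearly as high with shRING1B, at 8.69 and 8.48 (0.14 ± 0.12, adjusted p = 0.598). ISL1 and LHX1 were lower without passing, at -0.51 ± 0.10 and -0.52 ± 0.12. Of 12 protocadherins PCDH7 fell (0.175% of all genes did), by 0.74 ± 0.09, from 9.15 and 9.13 to 8.44 and 8.35 (adjusted p = 0.0153). PCDH10 and PCDH20 differed by 0.28 ± 0.15 and 0.39 ± 0.13. MSC, which encodes the repressor musculin, rose from 6.17 and 6.35 to 7.42 and 7.44 (1.17 ± 0.10, adjusted p = 0.00489), and the antisense gene MSC-AS1, chosen after its value was seen, from 6.28 and 6.22 to 7.13 and 7.05 (0.84 ± 0.09). Of 36 WNT and NOTCH genes 0 passed by limma (8 at an unadjusted p under 0.05, median -0.001). The NOTCH ligand DLL4 was at 0.52 ± 0.11, its target HEY1 at 0.54 ± 0.17 and the receptor LGR6 at 0.48 ± 0.14. CDKN2A, the cell cycle inhibitor gene known as a PRC2 target, was at 7.01 and 6.91 and 6.96 and 6.92, and the interval of its difference ran from -0.22 to 0.18.

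Among 26 genes of cholesterol synthesis, STARD4, which carries sterols, rose (0.558% of all genes did), from 6.96 and 6.98 to 7.71 and 7.53 (0.65 ± 0.10, adjusted p = 0.0423). Of the 26 genes, 16 had both shEZH2 arrays higher and 3 lower, against 23.1% and 27% of all genes (median 0.21). The desaturases SCD and FADS1 differed by 0.50 ± 0.15 and 0.48 ± 0.09. SGPP2, a phosphatase of sphingosine 1-phosphate, rose 2.31-fold from 5.70 and 5.90 to 6.96 and 7.05 (1.21 ± 0.10). ALDH2, mitochondrial aldehyde dehydrogenase, rose from 8.38 and 8.47 to 9.47 and 9.50 (1.06 ± 0.14), and DHRS3, which reduces retinal, from 5.84 and 6.34 to 7.34 and 7.22 (1.19 ± 0.17). The metalloreductase STEAP4 rose from 7.78 and 7.28 to 8.58 and 8.63 (1.07 ± 0.15). HEPHL1, a ferroxidase, rose from 5.71 and 5.59 to 6.71 and 6.83 (1.12 ± 0.09) and was nearly as high with shRING1B, at 6.53 and 6.46 (0.27 ± 0.09, adjusted p = 0.234). MT1L gave the largest decrease, by 1.72 ± 0.16, from 7.81 and 7.99 to 6.01 and 6.34 (adjusted p = 0.00673), with 8.35 and 8.74 on the shRING1B arrays and 7.90 and 8.11 on the shBMI1 arrays. Its value is uncertain, because metallothionein genes are near-identical copies. The other 10 measured metallothioneins did not pass, with MT1E at -0.53 ± 0.27 and MT1F at 0.40 ± 0.14. Lists of glutathione and NRF2 genes (16), hypoxia and glycolysis genes (17) and p53 targets (11) held 0 genes that passed by limma and 2, 5 and 2 with an unadjusted p under 0.05, with medians of 0.02, -0.03 and -0.03. The largest differences were in TXNRD1, thioredoxin reductase, at 0.40 ± 0.09, the hypoxia gene NDRG1 at 0.45 ± 0.11 and the p53 target TP53INP1 at 0.63 ± 0.19. HMOX1 and KEAP1 of the NRF2 list were at 0.26 ± 0.10 and -0.25 ± 0.11, GAPDH and BNIP3L of the hypoxia list at -0.33 ± 0.12 and 0.34 ± 0.09, and AEN and PMAIP1 of the p53 list at -0.33 ± 0.08 and 0.20 ± 0.13.

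**Figure D3:**
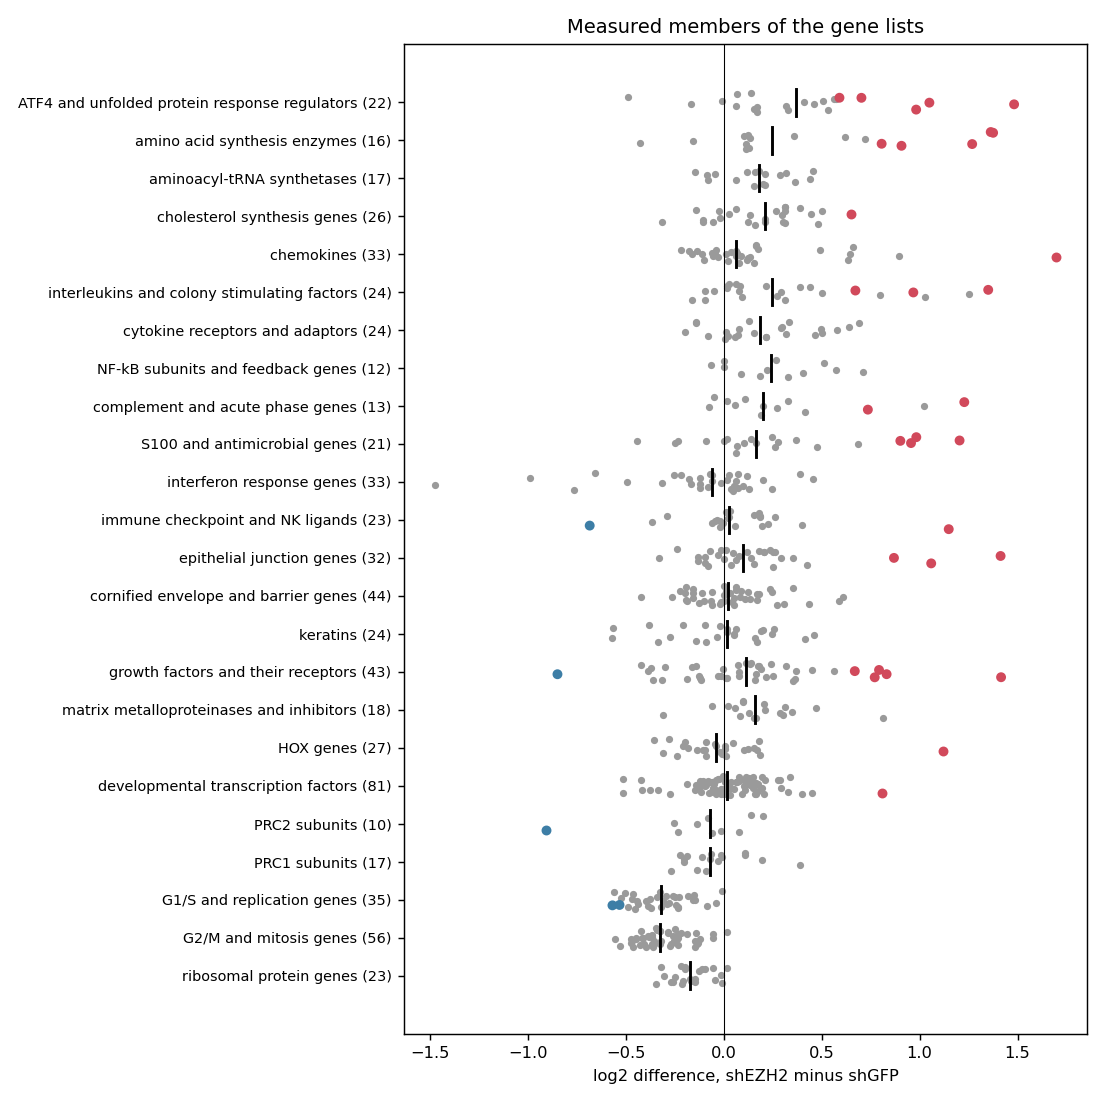
Each row is a gene list with its number of measured members, each dot is 1 member with its log2 difference, shEZH2 minus shGFP, and the black bar is the median. Red dots rose and blue dots fell; the amino acid and ATF4 rows reach 1.38 and 1.48, and every dot of the G1/S row lies below 0.

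Cell cycle genes were lower by small amounts, and in bulk RNA fewer dividing cells and less RNA per cell cannot be told apart. Of 35 G1/S and replication genes MCM5 and MCM10 fell (0.175% of all genes did), all 35 had negative differences, and 31 had both shEZH2 arrays below both shGFP arrays, against 27% of all genes (median -0.32). MCM5 is a subunit of the replicative helicase and MCM10 helps to start it. MCM5 fell by 0.57 ± 0.08, from 9.86 and 9.93 to 9.27 and 9.38 (adjusted p = 0.0312), and MCM10 by 0.53 ± 0.09, from 9.71 and 9.68 to 9.13 and 9.20 (adjusted p = 0.0457). MCM5 was also lower than with shRING1B and shBMI1 (adjusted p = 0.0479 and 0.0381), MCM10 only than with shBMI1 (adjusted p = 0.0493; 0.0871 against shRING1B). GINS4, another helicase subunit, was at 8.07 and 8.05 and 7.46 and 7.54 without passing (-0.56 ± 0.10, adjusted p = 0.0639). Of 56 G2/M and mitosis genes 0 passed by limma, 39 had an unadjusted p under 0.05, 55 had negative differences and 52 had both shEZH2 arrays below both shGFP arrays, against 27% (median -0.32). The centromere protein CENPM differed by -0.55 ± 0.10, the kinase NEK2 by -0.53 ± 0.11 and the proliferation marker MKI67 by -0.47 ± 0.10 (adjusted p = 0.066, 0.0853 and 0.0892). CCNF, cyclin F, which lies outside these lists, fell by 0.64 ± 0.10, from 9.14 and 9.33 to 8.51 and 8.70 (adjusted p = 0.0435), and the kinesin KIF24 by 0.53 ± 0.09, from 8.34 and 8.30 to 7.74 and 7.83. List means on each array were 9.81 and 9.89 (G1/S) and 9.77 and 9.74 (G2/M) with shGFP, and 9.51 and 9.53, and 9.45 and 9.44, with shEZH2. With shRING1B they were 9.72 and 9.87, and 9.55 and 9.67, and with shBMI1 9.79 and 9.86, and 9.83 and 9.75. Of 24 G1 cyclins and immediate early genes 0 passed by limma (6 at an unadjusted p under 0.05), with JUN at 0.48 ± 0.12, JUND at 0.41 ± 0.10 and EGR1 at -0.37 ± 0.10.

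The MCM10 and MCM2 promoters are shown to set a fallen gene without a match to TTTNGCGC beside a helicase gene with matches. This motif is a core of sites bound by E2F factors, the regulators of replication genes. Other forms of E2F sites were not searched for. The motif and the MCM2 window were chosen after values were seen, and the promoter of MCM5 was not used here. The windows are chr10:13161308-13161607 for MCM10 and chr3:127598161-127598460 for MCM2, both on the plus strand of GRCh38.p14 (RefSeq). In MCM2 the capitals mark 2 matches, on opposite strands, that share bases and begin 3 and 7 bases after the start site.
MCM10: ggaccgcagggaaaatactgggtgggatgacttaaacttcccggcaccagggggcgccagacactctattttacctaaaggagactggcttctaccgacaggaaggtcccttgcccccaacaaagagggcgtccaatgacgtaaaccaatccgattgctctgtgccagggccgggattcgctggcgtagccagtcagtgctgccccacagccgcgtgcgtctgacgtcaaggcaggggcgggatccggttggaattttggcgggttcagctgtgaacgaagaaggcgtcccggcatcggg
MCM2: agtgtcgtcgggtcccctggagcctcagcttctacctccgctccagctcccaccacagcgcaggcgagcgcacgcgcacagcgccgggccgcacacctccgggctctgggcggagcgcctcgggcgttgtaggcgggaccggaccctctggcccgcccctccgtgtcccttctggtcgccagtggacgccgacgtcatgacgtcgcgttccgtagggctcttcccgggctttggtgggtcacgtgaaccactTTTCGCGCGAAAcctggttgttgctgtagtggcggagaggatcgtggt
MCM2 was at 9.32 and 9.47 with shGFP and 8.87 and 8.99 with shEZH2 (-0.47 ± 0.11, adjusted p = 0.103). The motif, on either strand, was found in 2.465% of all 10749 windows, in 13 of 30 G1/S windows, in 3 of 48 G2/M windows and, among 19 windows of fallen genes, in that of EZH2. Among the 63 windows of risen genes it was found in 0.

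**Figure D4:**
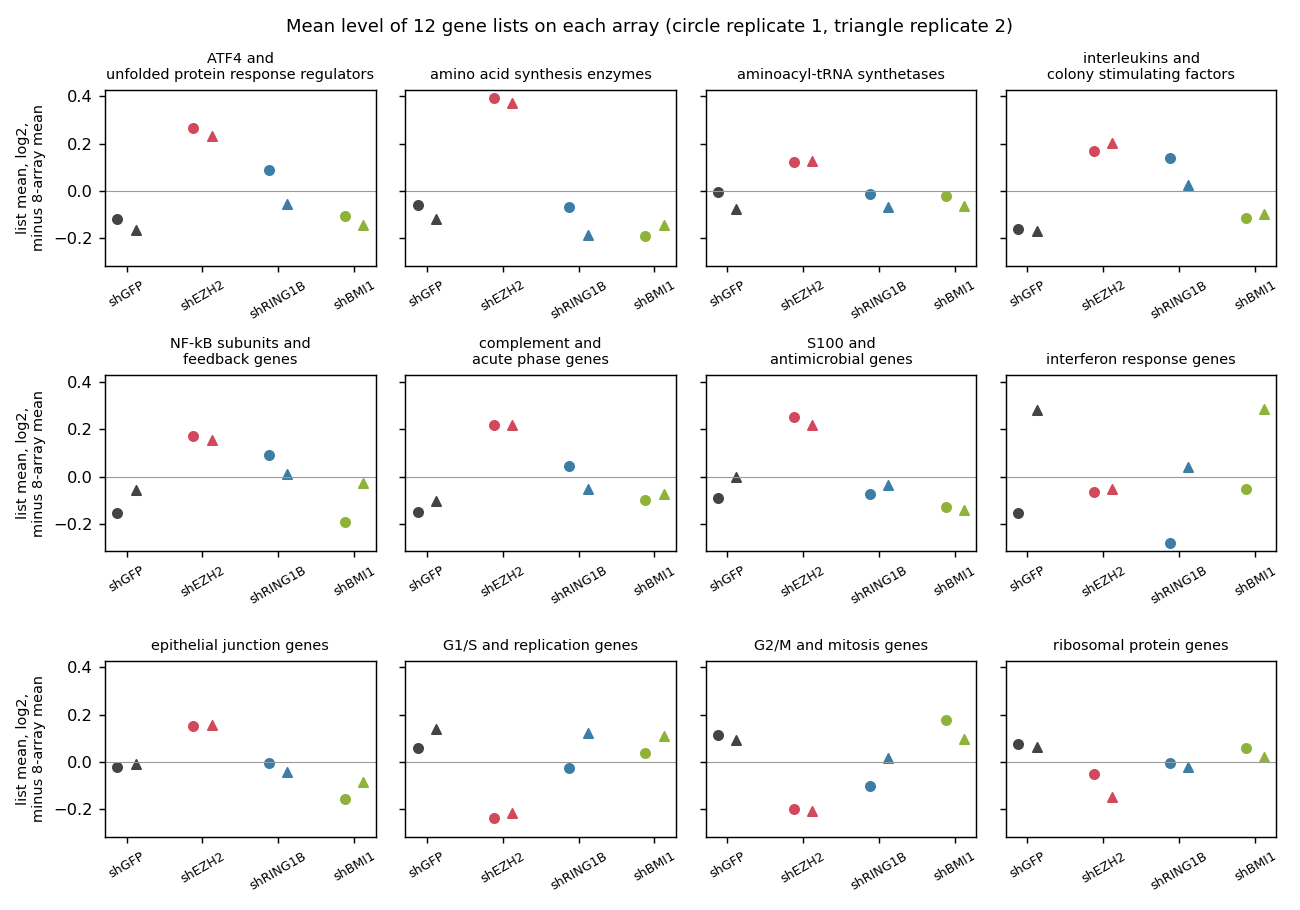
Each panel is 1 of 12 gene lists, with the mean log2 level of its measured members on each array minus the mean over the 8 arrays, circles for replicate 1 and triangles for replicate 2. In every panel except the interferon one the shEZH2 points lie beyond those of the other 6 arrays. They lie below in the G1/S, G2/M and ribosomal panels and above in the rest, in the interleukin panel by little. In the interferon panel replicate 2 is the higher array of the other 3 hairpins.

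Ribosomal protein genes were lower too, by less. Of 23 measured members 0 passed by limma, 9 had an unadjusted p under 0.05, 22 had negative differences and 19 had both shEZH2 arrays below both shGFP arrays, against 27% of all genes (median -0.17). RPL30 was at 9.59 and 9.57 and 9.30 and 9.17 (-0.34 ± 0.09, adjusted p = 0.142), RPS15 at -0.32 ± 0.09 and RPS16 at -0.30 ± 0.11, and these values are uncertain because ribosomal protein genes have many processed pseudogenes. NLE1, a factor of large ribosomal subunit assembly, fell by 0.59 ± 0.09, from 9.49 and 9.49 to 8.83 and 8.96 (adjusted p = 0.0312), and was lower than with shRING1B and shBMI1 (adjusted p = 0.0242 and 0.0443).

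ANO4, a membrane protein of the anoctamin family, fell by 0.93 ± 0.08, from 6.87 and 6.89 to 5.92 and 5.98 (adjusted p = 0.00608), and stood at 6.90 and 7.002 with shRING1B and 7.40 and 7.35 with shBMI1. SNAPIN, which binds the SNARE complex of vesicle fusion, fell by 0.65 ± 0.08, from 9.40 and 9.41 to 8.77 and 8.75. The inner nuclear membrane protein TMEM201 fell by 0.57 ± 0.08, from 8.82 and 8.87 to 8.27 and 8.29. CCDC80, a secreted matrix-associated protein, fell by 0.64 ± 0.11, from 9.25 and 9.27 to 8.61 and 8.63, and was at 8.63 and 8.91 with shRING1B. MANSC1, LRRIQ1, SERTAD4, GFOD2 and MTHFSD fell by 0.69 ± 0.11, 0.63 ± 0.09, 0.56 ± 0.08, 0.49 ± 0.08 and 0.53 ± 0.09, LRRIQ1 at a level among the dimmest 30% of genes, and the zinc finger gene ZNF530 by 0.58 ± 0.09. Among the genes outside the naming rule, the non-coding RNA LINC00707, chosen after its value was seen, fell by 1.04 ± 0.13, from 9.97 and 9.79 to 8.90 and 8.76 (adjusted p = 0.018).

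**Figure D5:**
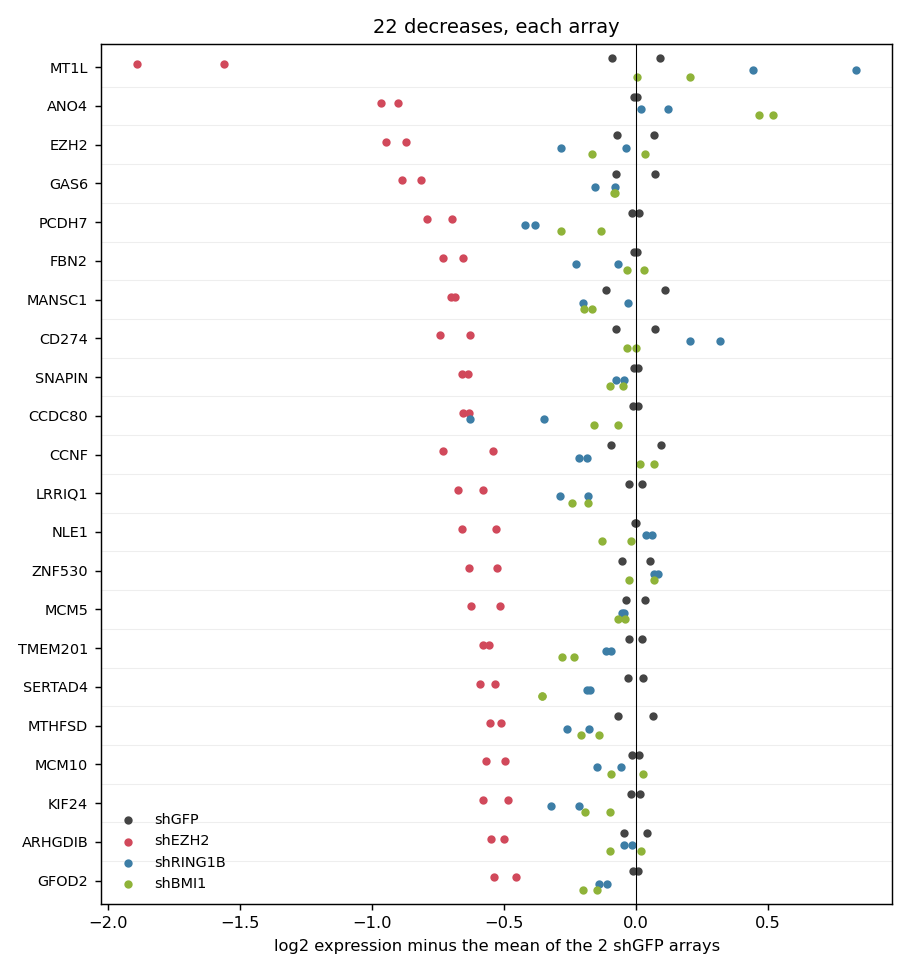
Each row is 1 of the 22 named genes that fell, and each dot is 1 array, with log2 expression minus the mean of the 2 shGFP arrays on the horizontal axis and colours for the 4 hairpins. The shEZH2 dots lie to the left of both shGFP dots in every row, which the choice of genes required, from -1.72 on average for MT1L to -0.49 for GFOD2.

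MAP1B, a microtubule protein best known from neurons, rose 2.29-fold from 7.70 and 7.54 to 8.78 and 8.84 (1.20 ± 0.11, adjusted p = 0.00608). FBXO32, the ubiquitin ligase subunit atrogin-1, rose from 7.41 and 7.72 to 8.61 and 8.72 (1.10 ± 0.17). Against shRING1B and shBMI1 FBXO32 did not pass by limma (adjusted p = 0.0743 and 0.0556). ARRDC4, an alpha-arrestin that limits glucose uptake, rose from 7.82 and 7.91 to 8.87 and 8.98 (1.06 ± 0.10) and was higher than with both other hairpins (1.08 ± 0.10 and 1.18 ± 0.10, adjusted p = 0.00808 and 0.0041). The genes in the rest of this paragraph were chosen after their values were seen. ARRDC3, of the same family, rose from 9.06 and 9.27 to 9.81 and 9.85 (0.66 ± 0.10). AHR, the aryl hydrocarbon receptor, rose from 10.02 and 9.996 to 10.57 and 10.54 (0.55 ± 0.08), and KYNU, an enzyme of tryptophan breakdown, from 9.08 and 9.32 to 9.96 and 9.94 (0.75 ± 0.10). OPTN, an autophagy receptor, rose by 0.79 ± 0.10, the acyl-CoA synthetase ACSL1 by 0.65 ± 0.09, the phosphatase PLPP1 by 0.70 ± 0.08 and the netrin NTN4 by 0.67 ± 0.09. The tendon factor MKX rose from 6.79 and 6.47 to 7.67 and 7.62 (1.01 ± 0.12), and the translation elongation factor EEF1A2, usual in muscle and neurons, from 9.37 and 9.40 to 10.22 and 9.93 (0.69 ± 0.11). SEL1L3 rose from 7.67 and 7.85 to 8.72 and 8.67, where it was at 7.52 and 7.39 with shRING1B and 7.39 and 7.51 with shBMI1 (1.24 ± 0.10 and 1.24 ± 0.10, adjusted p = 0.00496 and 0.00343).

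Markers of other cell types were read on the same arrays. DCN, the fibroblast proteoglycan decorin, rose from 6.94 and 7.08 to 8.03 and 7.86 (0.93 ± 0.10, adjusted p = 0.0109), and was at 7.45 and 7.46 with shBMI1. LUM, lumican, was at 3.94 and 4.36 and 4.75 and 5.33 without passing (0.89 ± 0.23, adjusted p = 0.12), and MFAP5, THY1 and DPT, the other measured fibroblast markers, differed by -0.19 ± 0.25, -0.15 ± 0.15 and -0.09 ± 0.09. The mean of these 5 was 5.54 and 5.73 with shGFP, 5.84 and 5.99 with shEZH2 and between 5.61 and 5.86 on the other arrays. MLANA rose from 4.17 and 4.19 to 4.80 and 4.85 (0.64 ± 0.11, adjusted p = 0.046) at a level among the dimmest 30% of genes, while the melanocyte markers TYR, PMEL, SOX10 and EDNRB differed by -0.01 ± 0.15, -0.15 ± 0.12, 0.20 ± 0.15 and -0.30 ± 0.20. Of 7 leukocyte markers 0 passed by limma (2 at an unadjusted p under 0.05) and 6 had positive differences (median 0.14), with means of 6.55 and 6.55 with shGFP and 6.64 and 6.60 with shEZH2. Their means were 6.72 and 6.63 with shRING1B and 6.57 and 6.51 with shBMI1. CD14 and TYROBP were at 0.27 ± 0.23 and 0.28 ± 0.12, and LCP1 was at -0.51 ± 0.12. Of 7 endothelial and 9 simple epithelium markers 0 passed by limma (1 and 3 at an unadjusted p under 0.05, medians 0.03 and 0.14), with VWF, TIE1 and PECAM1 at 0.23 ± 0.09, 0.15 ± 0.10 and -0.12 ± 0.12 and KRT7, VIL1 and CDX2 at 0.42 ± 0.13, 0.31 ± 0.10 and 0.29 ± 0.12. The part of such cells in the increases was not tested. The mean of the 6 keratinocyte markers was 9.48 and 9.43 with shGFP and 9.35 and 9.30 with shEZH2. It was 9.16 and 9.22 with shRING1B and 9.33 and 9.35 with shBMI1.

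The shEZH2 arrays were also tested against those of the other Polycomb hairpins, which uses the same shEZH2 arrays and no shGFP array. How far these other hairpins lowered their own targets was not checked. By limma 86 genes (0.578%) passed against shRING1B and 145 (0.974%) against shBMI1. Relative to shGFP, the 83 risen genes had a median of 0.87 with shEZH2, 0.22 with shRING1B and 0.03 with shBMI1, and these medians share the control arrays. For the 26 fallen genes the medians were -0.64, -0.11 and -0.08. Both sets were chosen by their difference between shEZH2 and shGFP, so larger medians with shEZH2 were built in by that choice. Amino acid synthesis genes had 5 of 16 members past the threshold against shRING1B and 6 against shBMI1, and S100 and antimicrobial genes 3 and 5 of 21. Other lists held such members too. They included growth factors and receptors (2 and 7 of 43), stress response regulators (1 and 5 of 22), developmental factors (2 and 5 of 81) and junction genes (2 and 4 of 32).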

How the data were processed

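Total RNA was labelled with biotin and hybridised to Affymetrix whole-transcript arrays, per the labels' protocols. The authors deposited log2 values of each probe set and computed them with RMA, per the submitters' processing notes, where limma is named too. RMA corrects background, quantile-normalizes and summarises probes. The sources used here give no tool version, probe set definition or genome build. Since RMA gives all arrays the same distribution, it would hide a shift of most genes, and it compresses differences of dim probe sets. The number of arrays limits the precision.

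Probe sets were named through the array's annotation table and a RefSeq gene table (0 symbols needed updating). The table pairs 37519 probe sets, including those of some well-known genes, with no symbol, and these are in no list. A gene was represented by its probe set of highest mean over the 8 arrays (779 genes had several), which left 14884 genes. limma 3.58.1 in R 4.3.3 fitted a mean per hairpin over all 8 arrays (4 residual degrees of freedom), with empirical Bayes moderation without trend. Tests were two-sided, with Benjamini-Hochberg adjustment over all genes within each comparison. The steps were tested on simulated data.

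The comparison, the 47 gene lists (44 with measured members) and the naming rule were chosen with earlier results of these data known, so the lists support nothing on their own. The rule names EZH2, the measured PRC2 genes and the 25 largest increases and decreases that passed (22 decreases). For these increases and decreases, both shEZH2 arrays had to lie on the same side of both shGFP arrays. Uncharacterised, small RNA, antisense and keratin-associated symbols were left out. From each list the rule also names every gene that passed and the 3 largest differences. Promoter windows came from a RefSeq table (GRCh38.p14), which held 10749 of the genes. Alternatives were leaving out each array, a replicate block, the 4 compared arrays alone, a second quantile normalization, centring on medians, leaving out the dimmest 30% of genes, averaging probe sets, all probe sets, protein-coding genes, a variance trend with robust fitting, array weights and a minimum change of 0.5 log2 units. The mean of the 3 other hairpins as the comparison was added after seeing the data.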

Additional observations from a re-analysis of the deposited data

How the results depend on the processing

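The number of genes that pass depends on the setting. Of the 69 named genes that passed, 2 still did over all probe sets, 30 with only the 4 arrays, 58 with the replicate block, 60 after quantile normalization, 64 after median centring, 68 against the mean of the other hairpins, and 0 with a minimum change or without either shEZH2 array. Against shGFP (109 genes) it was 39 with only the 4 arrays compared, 409 without the dimmest 30% of genes (222 higher, 187 lower), 169 over protein-coding genes alone, 4 over all probe sets, 648 with a trended robust variance (281 higher, 367 lower), 174 with array weights, 353 against the mean of the 3 other hairpins and 0 with limma's test for a minimum change of 0.5 log2 units (84 at an unadjusted p under 0.05). Leaving out 1 array gave 0 to 91, where the lone array is assumed to vary like the other groups. In the same order, against shRING1B (86 genes) it was 21, 361, 183, 4 and 555, then 2 with the minimum change and 0 to 75 without 1 array. Against shBMI1 (145 genes) it was 57, 445, 320, 9 and 640, then 3, and 2 to 106. The cause of these differences was not tested, except that fewer arrays leave fewer degrees of freedom. EZH2 was at -0.86 after quantile normalization, -0.92 after median centring and -0.83 against the mean of the 3 other hairpins. In the other settings that kept both shGFP and both shEZH2 arrays EZH2 was at -0.91, but no longer passed over all probe sets or with the minimum change. Without 1 of those arrays EZH2 lay between -0.84 and -0.98. Values of genes that had not passed turned sign for EZH1 (0.0454 after quantile normalization, 0.0511 against the mean of the other hairpins, -0.0925 to 0.0656 without 1 array), CDKN2A (-0.0687 to 0.0314 without 1 array), CD14 (-0.0282 to 0.576 without 1 array) and MFAP5 (0.0153 against the mean of the other hairpins, -0.490 to 0.103 without 1 array). The labels do not say that replicate numbers pair the arrays, and deviations of same-numbered shGFP arrays correlated at 0.02 with shEZH2, 0.12 with shRING1B and 0.25 with shBMI1, and those of shEZH2 at 0.0007 with shRING1B and 0.09 with shBMI1. With the replicate number as a block, 108 genes passed against shGFP (84 higher, 24 lower), 88 of them shared with the fit without it.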

Other observations

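MicroRNA probe sets gave 3 of the changed genes out of 1072 measured, against 109 of all 14884 genes (0.732%). MIR4309 rose from 2.93 and 3.004 with shGFP to 3.84 and 4.18 with shEZH2 (1.05 ± 0.15, adjusted p = 0.028 by limma). MIR3662 fell from 4.05 and 3.95 to 3.39 and 3.46 but was lower still with shRING1B, at 3.08 and 3.12, and MIR1276 fell from 4.30 and 4.02 to 3.52 and 3.36. All 3 lie among the dimmest 30% of genes.

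Long non-coding RNAs gave 3 of the changed genes out of 1398, against the same 0.732% of all genes, LINC00707 and MSC-AS1 among them. WAKMAR2 rose from 5.29 and 4.98 to 5.98 and 6.33 (1.02 ± 0.17, adjusted p = 0.0435). Of the genes that passed, 10 lay among the dimmest 30%, WAKMAR2 and NBEA among them.

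KRTAP2-3, a hair keratin-associated gene with near-identical copies, fell from 7.71 and 7.86 to 7.10 and 7.08 with shEZH2, whereas it stood at 8.75 and 8.49 with shRING1B, and the difference between these hairpins was -1.53 (adjusted p = 0.0039). NBEA and EPDR1 rose with shEZH2 (0.80 ± 0.11 and 0.68 ± 0.11), and with shBMI1 NBEA was at 5.96 and 5.83 and EPDR1 at 6.90 and 7.06, with differences from shEZH2 of -0.07 and -0.01 that did not pass.

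Probe sets without a symbol were tested apart from the genes, and 9.70% of 37519 had an unadjusted p under 0.05, against 11.3% of the 16098 named ones. Over all probe sets 4 passed, for CTH, LURAP1L and 2 without a symbol, which differed by 1.86 ± 0.11 and -1.66 ± 0.13.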
